A study of Danio rerio with 2 samples.

Results

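Kinesins and the genes of the kinetochore, the mitotic kinases and mitotic exit were read on the arrays through their names. A probe was taken when the gene symbol printed with it began with any of a set of patterns. These were the names of kinesins (kif), centromere proteins (cenp, ndc80, nuf2, spc2), checkpoint genes (bub, mad2l) and mitotic kinases (aurk, plk). Further patterns took passenger proteins and other cdca genes (birc5, incenp, cdca), and spindle or cleavage genes (tpx2, prc1, anln). The rest took the anaphase-promoting complex, its activator, securin and separase (anapc, cdc20, pttg, espl1), and structural genes of chromosomes (smc, top2). The patterns read names and no values. They gave 86 of the 43553 probes, and these belong to 44 of the 27438 genes and unnamed targets of the array. The 44 comprise 4 mitotic kinesins, 11 other kinesins, 5 centromere and kinetochore genes, 2 checkpoint genes, 9 genes of mitotic kinases and the passenger complex, 4 genes of the anaphase-promoting complex and of a securin-binding protein, 2 cytokinesis genes and 7 genes of chromosome structure. Some current symbols differ from those of the files, which list kif5aa as kif5a, kif5bb as kif5ba, kif3cb as kif3c, plk2b as plk2 and pttg1ipb as pttg1ip.

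The study asked how a leukemia fusion gene changes expression in zebrafish. Total RNA of WT embryos of the AB line was set against total RNA of F2 embryos of Tg(RE:HSE:EGFP), a line made in AB fish in which a bidirectional promoter of heat shock elements drives EGFP on one side and human RUNX1-Evi-1, the fusion gene, on the other. Embryos of both groups, the WT included, received a heat shock (1 hour, 38 °C), begun at 16 hpf according to the methods, and are labelled 72 hpf (3 dpf). The promoter is not restricted to a tissue, the line goes back to a few mosaic founders, and neither a selection of the embryos by EGFP nor the number pooled is described for the arrays. The methods name embryos and describe no separation of blood cells, whereas the study's account of its results speaks of blood cells. The tissue is therefore read from its markers, given at the end, and fewer cells of a type cannot be told apart from less RNA per cell. Each group is represented here by 1 array, so there is no spread between samples, no p-value is given, and every difference compares these 2 arrays. The methods speak of triplicate measurement, so a value may be that of 1 hybridization or an average, and the sources do not say which. The files hold 1 normalized log2 signal per probe. The array labelled Tg(RE:HSE:EGFP) is called the Tg array, and differences are Tg minus WT. No probe carries the name of either transgene, and the labels are in doubt. Of the 2 probes of h1fx, a linker histone gene, 1 is listed at 11.46 on the array labelled WT and at 10.34 on the other array. The other probe is listed at 11.36 on the array labelled WT and at 10.02 on the array labelled Tg. The study prints this pair of levels for the same gene with the groups the other way round. It prints levels for the histone deacetylase genes hdac4 and hdac11 too, and no probe was found with either of those pairs. An exchange of labels would therefore not account for all of the printed levels. Neither would the labels as given, so the unmatched pairs do not show which labelling is right. In direction, the probes of hdac4 were lower on the array labelled Tg, opposite to the study's direction, as for h1fx. A direction for hdac11 is not given here. The study's direction for cell cycle genes as a group is, like that for h1fx, opposite to that of the labels. Its directions for DNA replication genes and gata1 run with them. These are unlike measures, since the study reports pathway terms among its called genes, and gata1 by qRT-PCR and in situ hybridization. Whether the labels are right cannot be told from the files. The arrays are therefore called by their labels throughout, and if the labels were exchanged every difference here would change sign.

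In mitosis, condensed chromosomes attach through their kinetochores to spindle microtubules, and kinesin motors build the spindle and move the chromosomes. The spindle checkpoint holds the anaphase-promoting complex inactive until every kinetochore is attached. Once released, that complex, with its activator Cdc20, marks securin and cyclin B for destruction, which frees separase to cut cohesin and lets the cell divide. Many genes of this machinery, though not all, are transcribed mostly in dividing cells, while many other kinesins carry cargo along axons or within cilia.

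Most genes of the set that were above background had lower signals on the array labelled Tg, but few by as much as 2-fold. A gene was read from its brightest probe, and a probe counted as above background when it passed the level reached by 95% of 170 chemoreceptor probes (trace amine, taste and odorant receptors), which was 6.72 on WT and 6.73 on Tg. By this limit 37 of the 44 genes were above background on both arrays and kif17 on the Tg array alone. Of the 37, 25 were below 0 and 11 above (67.6% below 0, against 52.5% of all 14477 genes above background on both arrays). Their median difference was -0.24 on the log2 scale, beside -0.03 for all these genes. At least 2-fold lower on the Tg array were 3 of 38 genes, namely cdc20, top2a and kif5bb, where 3.53% of all genes passed this threshold. At least 2-fold higher was birc5b alone, where 4.73% of all genes were. Without the other kinesins, 22 of 32 mitotic genes above background on both arrays were below 0 (68.75%), with a median of -0.30. Of these mitotic genes, cdc20 and top2a were at least 2-fold lower and birc5b at least 2-fold higher. Just inside the threshold stood kif5bb (2.17-fold), top2a (2.17-fold) and birc5b (2.07-fold), and just outside it smc1al (1.99-fold). With the difference averaged over the probes of a gene, kif5bb remained as the only one of the 4 called genes past 2-fold. It has 1 probe, so averaging could not change its value.

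**Figure D1:**
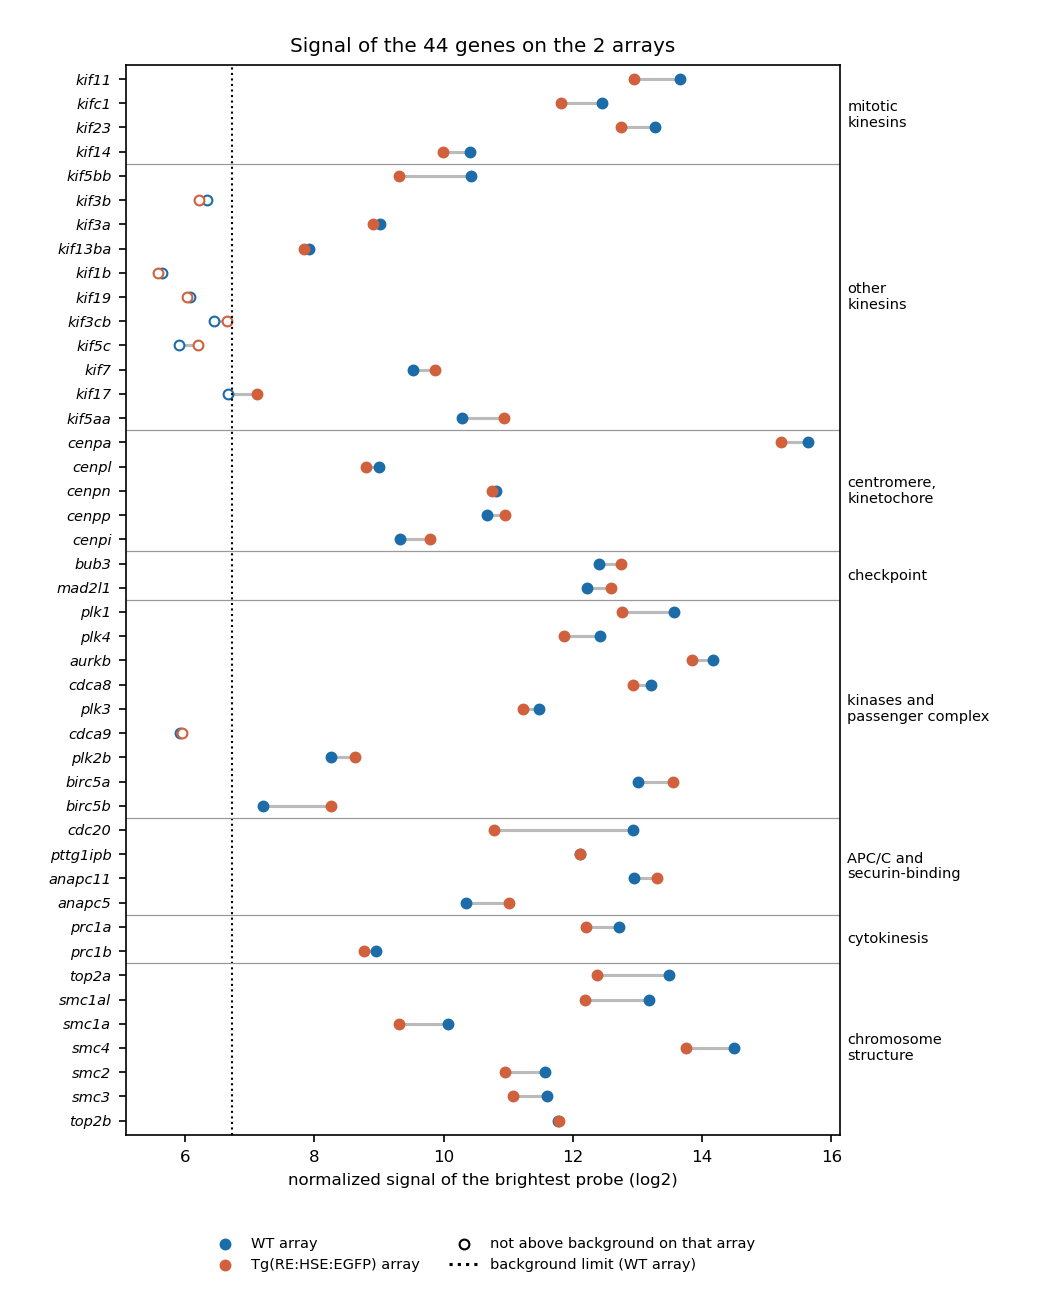
Normalized log2 signal of the brightest probe (x axis) of each of the 44 genes on the WT array (blue) and the Tg(RE:HSE:EGFP) array (orange), grouped by role. Open circles are values not above background on that array, and the dotted line is the background limit of the WT array, 6.72. The 7 chromosome structure genes and the 4 mitotic kinesins lie with the orange point at or to the left of the blue one, while bub3 and mad2l1 lie the other way.

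Genes of chromosome structure had the lowest median of any role with more than 2 genes above background (-0.74 over 7 genes). Of the 7, 6 were below 0, beside 52.5% of all genes. The gene top2a encodes topoisomerase II alpha, which untangles sister DNA molecules before they separate. Its brightest probe read 13.50 on WT and 12.38 on Tg, a difference of -1.12. The other 3 probes of top2a differed by -0.93, -0.99 and -0.34, and the mean over all 4 was -0.84 ± 0.35 (SD, n = 4 probes). All probes of this gene were thus lower on the Tg array, though not all by the same amount. These lie, in the positions of the files, at chr12:11489713-11489769, chr12:11489813-11493165 and chr12:11506566-11510896, and the probe at -0.34 is placed on an unassembled scaffold. The scaffold names carry the name of the Zv8 assembly, and no annotation of that assembly was used here. Probes of 1 gene share the same RNA extract, so their SD describes the measurement and not the embryos.

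The condensin subunits Smc2 and Smc4 compact the chromosomes at the start of mitosis. For smc2 the brightest probe read 11.57 and 10.96 (WT and Tg), a difference of -0.61, which was the smallest of its 4 probes. The others differed by -0.71, -1.05 and -1.17, and the mean was -0.89 ± 0.27 (SD, n = 4 probes). Here the choice of the brightest probe gave the smallest difference of the gene, the opposite of what it did for top2a. A pair of smc2 probes that start 21 bases apart at chr1:18965578 and chr1:18965599 differed by -0.71 and -1.17, so readings of nearly the same stretch were apart by more than 0.4. For smc4, levels of 14.49 and 13.76 gave -0.74, and its dimmer probe gave -0.42.

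Cohesin holds sister chromatids together until separase cuts it, and its ring contains Smc3 and an Smc1 protein. Both smc1al (13.18 on WT and 12.19 on Tg, -0.99) and smc1a (10.07 and 9.31, -0.76) were lower on the Tg array. The other smc1al probes differed by -0.40 and 0.00, the latter at a level of 6.79 on either array, close to the limit. The third cohesin gene, smc3, read 11.60 and 11.07 (-0.53), with -0.37 at its dimmer probe. The exception among the 7 genes of the set in this role was top2b, a topoisomerase that also works in cells that do not divide. It read 11.78 on both arrays at its brightest probe, with -0.14, -0.18 and -0.34 at the others, so its probes spread from no difference to one like the smallest of top2a.

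Among motors of the spindle, all 4 mitotic kinesins of the set were below 0 (52.5% of all genes were), with a median of -0.58. None was 2-fold lower, beside 3.53% of all genes. Kif11, the motor that pushes spindle poles apart, was read by 1 probe with 13.66 on WT and 12.95 on Tg (-0.72). The kifc1 gene, for a motor that focuses the poles, read 12.45 and 11.82 (-0.63), and its other probe gave -0.61. Of 2 further probes that match kifc1 by accession but carry another symbol, 1 gave -0.44 and 1 gave -0.58. For kif14, a motor of cytokinesis, the difference was -0.42 at the brightest probe (10.40 and 9.99) and -0.44 at the other. The first pair of kifc1 probes has the same listed position, so it reads 1 stretch again, while the kif14 probes start 416 bases apart. Kif23 bundles microtubules in the spindle midzone. Of its 5 probes, 4 were above background on both arrays and gave -0.53 at the brightest (13.27 and 12.75), then -0.35, -0.03 and 0.20. Their mean of -0.18 ± 0.33 (SD, n = 4 probes) was smaller than the spread of the probes.

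The 11 other kinesins, motors of transport in axons and cilia and of signaling, showed no common direction. Of these, 5 were above background on both arrays (3 below 0 and 2 above, median -0.08), kif17 on the Tg array alone, and kif1b, kif19, kif3b, kif3cb and kif5c on neither. The kif5aa and kif5bb genes encode heavy chains of conventional kinesin and stood at opposite ends. For kif5aa, the neuronal form, 3 probes gave 0.63, 0.63 and 0.64, with levels of 10.29 and 10.93 at the brightest. This was the tightest set of probes among the 44 genes, 0.63 ± 0.01 (SD, n = 3 probes), though 2 of them start only 9 bases apart. For kif5bb, a form used in many tissues, the only probe read 10.43 on WT and 9.32 on Tg (-1.12, 2.17-fold lower). The kif7 gene, whose product acts in Hedgehog signaling at the cilium, was at 0.33 (9.53 and 9.87). The heterotrimeric kinesin gene kif3a, for the motor of ciliary transport, was at -0.11 (9.02 and 8.92), and kif13ba at -0.08 (7.92 and 7.84). For kif17, levels of 6.67 and 7.12 straddle the limit and give a bound of only 0.39, less than 2-fold. With the limit set at 99% of the receptor probes, the median of this role moved from -0.08 to 0.11.

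**Figure D2:**
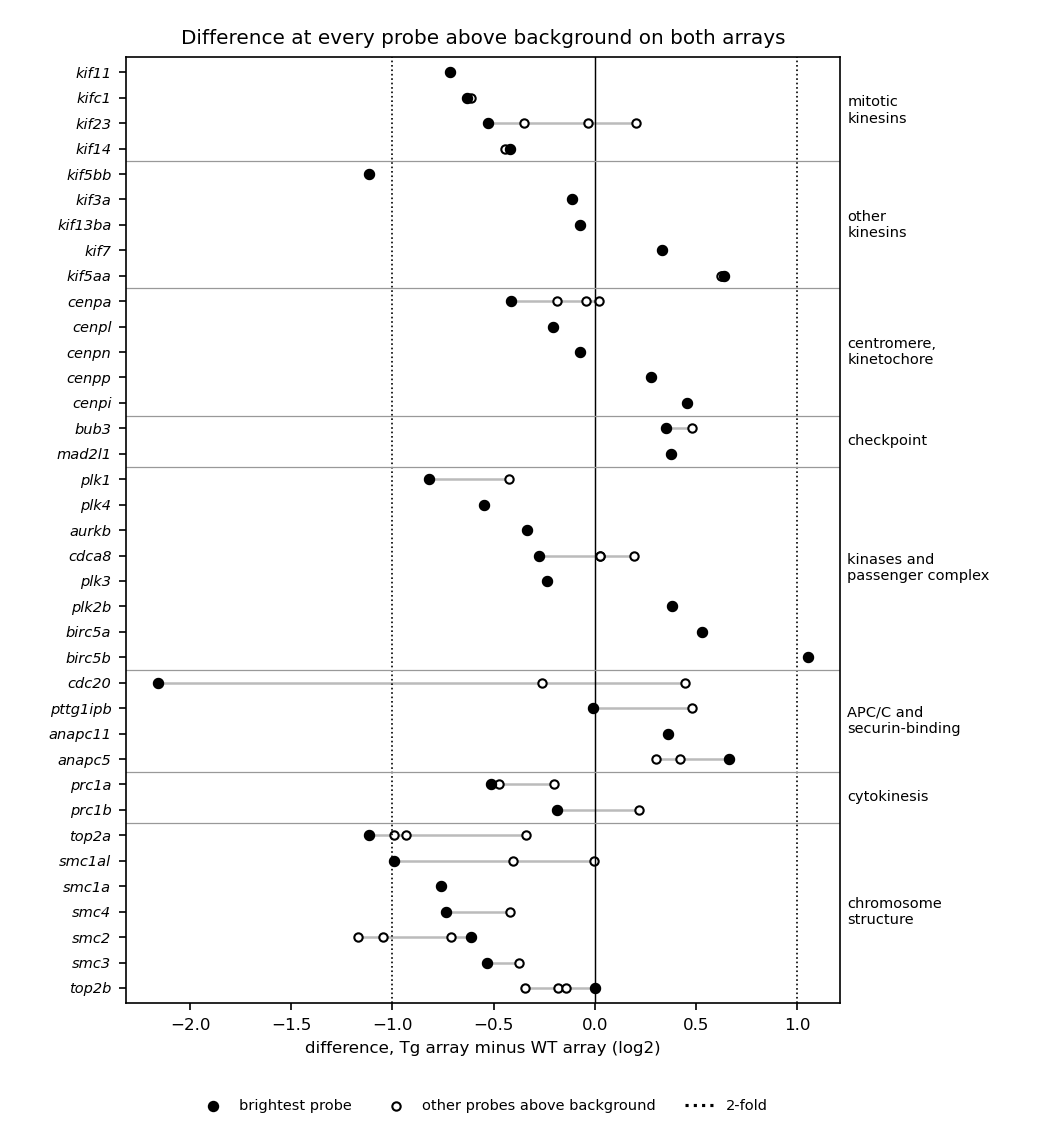
Difference between the arrays (Tg minus WT, log2, x axis) at every probe of the set above background on both, for the 37 genes with such a brightest probe. Filled circles are the brightest probe of a gene, open circles its other probes, grey lines their range, and dotted lines mark 2-fold. The drawn probes of kif5aa and kifc1 nearly coincide, whereas those of cdc20 run from -2.16 to 0.45. Further probes of kifc1 and cenpp that carry another symbol are not drawn.

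At the centromere the genes were split, with 3 of 5 below 0 and a median of -0.07. CENP-A, the histone H3 variant that marks the centromere, was read by 4 probes. The brightest cenpa probe read 15.63 on WT and 15.22 on Tg (-0.42), and the others gave -0.18, -0.04 and 0.02. Genes of the inner kinetochore network that assembles on CENP-A followed no single direction. Of these, cenpl was at -0.21 (9.01 and 8.80), cenpn at -0.07 (10.81 and 10.74), cenpp at 0.28 (10.68 and 10.96) and cenpi at 0.46 (9.33 and 9.78), each by 1 probe. For cenpp a pair of probes listed under a clone name, which the reference joins to this gene, gave -0.66 and -0.91. That pair is listed in the opposite orientation to the first probe, so it may not read the same transcript.

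The 2 spindle checkpoint genes of the set, bub3 and mad2l1, were above 0, while bub1bb (-0.32), which matches by current symbol only, was below it. The mad2l2 gene (-0.17) also matches by current symbol only, and the start of its name alone places it in this role. Bub3, which brings checkpoint kinases to unattached kinetochores, had levels of 12.40 on WT and 12.75 on Tg (0.35), and 0.48 at its other probe. Mad2, encoded by mad2l1, binds and holds back Cdc20. It read 12.22 and 12.59 (0.38), and the other mad2l1 probe, listed in the opposite orientation on the chromosome, was not above background.

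Of 5 mitotic and polo-like kinase genes, 4 were below 0 (52.5% of all genes were). None differed by 2-fold, beside 3.53% of all genes at least 2-fold lower and 4.73% higher. Plk1, the polo-like kinase that drives entry into mitosis and spindle assembly, read 13.57 on WT and 12.76 on Tg (-0.82), with -0.42 at its dimmer probe. For plk4, which starts the duplication of centrioles, the difference was -0.55 (12.42 and 11.87). Aurora B, the catalytic subunit of the chromosomal passenger complex, was at -0.34 (aurkb, 14.18 and 13.84). The polo-like kinases of stress responses were apart from each other, with plk3 at -0.24 (11.47 and 11.24) and plk2b at 0.38 (8.25 and 8.63).

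Genes of the other passenger subunits lay on both sides of 0. Survivin, which brings the complex to the centromere, has a pair of genes in zebrafish, and both were above 0. The birc5a gene read 13.02 on WT and 13.55 on Tg (0.53). The birc5b gene read 7.20 and 8.25 (1.05) on a pair of signals near the background limit, and with a limit set at 99% of the receptor probes it was no longer called at 2-fold. A second birc5b probe, listed in the opposite orientation, was not above background. Borealin, encoded by cdca8, was at -0.27 by its brightest probe (13.21 and 12.94), and its other 3 probes gave 0.03, 0.03 and 0.20. Its mean of -0.01 ± 0.19 (SD, n = 4 probes) was within the spread of the probes. Its paralog cdca9 was not above background.

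The lowest of the 44 genes was cdc20, and its probes disagreed. The brightest read 12.93 on WT and 10.78 on Tg, 4.46-fold lower (-2.16). A second probe read 11.16 and 10.91 (-0.26), and the third 9.26 and 9.71 (0.45). The probes thus point in both directions, and their mean of -0.66 ± 1.35 (SD, n = 3 probes) was smaller than their spread. All 3 are assigned to the same RefSeq transcript, but the files list a further Ensembl transcript for the second and the third that is not listed for the brightest. On chromosome 2 the first 2 lie within 315 bases of each other, at chr2:18508428-18508487 and chr2:18508743-18508802, and the third is farther off at chr2:18521833-18521892. For comparison, the median SD between probes of 1 gene was 0.15 over the 5847 genes with at least 2 probes above background, so cdc20 was far more spread than a typical gene. The difference of over 4-fold at cdc20 therefore rests on 1 of its 3 probes.

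Of the anaphase-promoting complex itself the set holds only anapc11 and anapc5, both above 0. Of 11 genes of the complex measured in all, 6 were below 0 (54.5%, near the 52.5% of all genes). Its RING subunit gene anapc11 was at 0.36 by 1 probe (12.94 and 13.31). For anapc5, a scaffold subunit, all 3 probes were above 0, with 0.67 at the brightest (10.35 and 11.02), then 0.42 and 0.30. The pttg1ipb gene, for a protein that binds securin, was at -0.01 at its brightest probe (12.11 on either array) and 0.48 at the other. In cytokinesis, Prc1 crosslinks midzone microtubules. The prc1a gene read 12.72 on WT and 12.21 on Tg (-0.51), with -0.47 and -0.20 at the other probes. For prc1b the probes gave -0.19 (8.96 and 8.78) and 0.22, so no direction was seen.

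Agreement between probes gives another reading of these genes. With at least 2 probes of their own above background on both arrays, 19 of the 44 could be read this way. Every probe was below 0 for 9 of them (47.4%), against 37.1% of all genes with at least 2 such probes. These were kif14, kifc1, plk1, prc1a, smc1al, smc2, smc3, smc4 and top2a, with no tolerance around 0, so that smc1al counts through a probe at -0.002. Every probe was above 0 for 3 (15.8%, against 35.6% of all such genes), namely anapc5, bub3 and kif5aa. The probes of cdc20, cdca8, cenpa, kif23, prc1b and pttg1ipb lay on both sides of 0, and top2b, with 1 probe at 0, is in none of these groups. Probes of a gene can overlap, as for kifc1, and are then no separate readings. In 13 of the 19 the brightest probe had the largest difference in size (68.4%, against 44.3% of all such genes), so reading each gene from its brightest probe tended to give these genes their largest value.

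**Figure D3:**
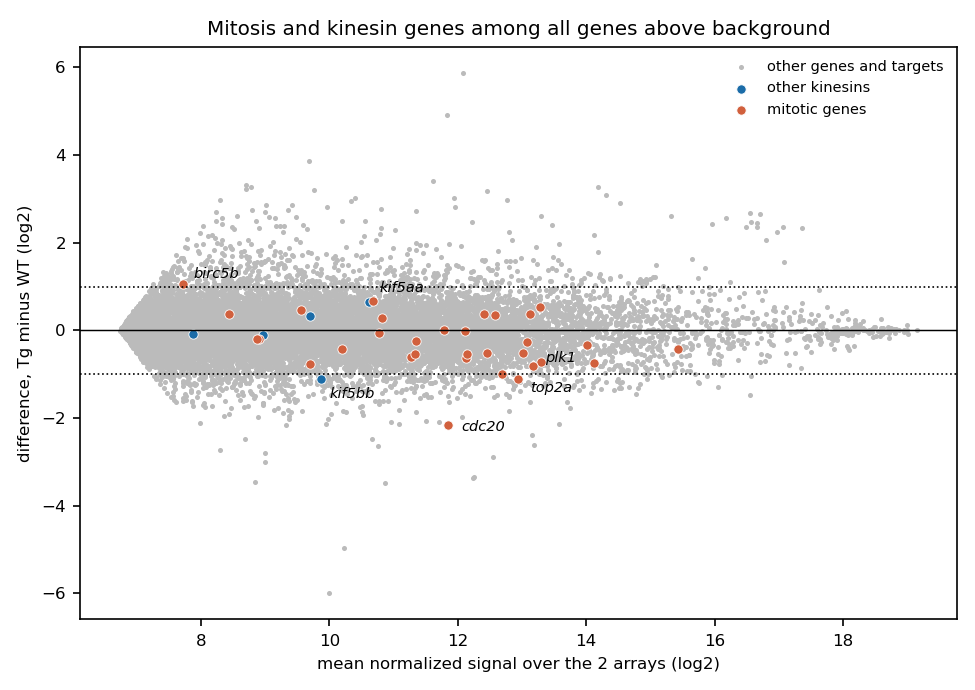
Difference between the arrays (Tg minus WT, log2, y axis) against the mean normalized log2 signal over both arrays (x axis) for genes above background on both, with dotted lines at 2-fold. Mitotic genes of the set are orange, its other kinesins blue and all other genes and targets grey. Of the colored points, only cdc20, top2a and kif5bb lie below the lower dotted line and only birc5b above the upper one.

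Symbols have changed since the array was designed, and 40 more genes match the same name patterns by their current symbols only. Of these, 34 were above background on both arrays, 26 below 0 and 8 above (52.5% of all genes were below 0), with a median of -0.32. Only cdca7b, for a chromatin protein of cycling cells, was 2-fold lower (14.50 on WT and 13.35 on Tg, -1.14), and none was 2-fold higher. This is 1 of 36 genes, beside the 3.53% of all genes at least 2-fold lower and 4.73% higher. Its paralog cdca7a was close to that, at -0.98 (15.45 and 14.47). CENP-E, the motor that carries chromosomes to the middle of the spindle, was at -0.85 (cenpe, 12.78 and 11.93), with -0.44 at its dimmer probe. Anillin, the scaffold of the cleavage furrow, was read by 5 probes. All 5 anln probes were below 0, from -0.54 at the brightest (12.56 and 12.02) to -0.25. Aurora A, which acts at spindle poles, was at -0.59 by its brightest probe (aurka, 13.40 and 12.81), and the dimmer ones gave -0.02 and -0.03. Of the chromosome structure genes matched this way, cdca5 was above 0 at both of its probes (0.16 at the brightest). In that role smc5 was below 0 at all 3 of its probes, and smc6 was not above background.

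The mitotic kinesins kif4 (-0.64), kif20a (-0.46), kif18a (-0.44) and kif2c (-0.18) were below 0, and kif22 was at 0.06. Of 8 other kinesins matching by current symbol only, 3 were above background on both arrays. All 3 were below 0 (52.5% of all genes were), namely kif2a (-0.71, 12.28 and 11.58), kif26ba (-0.11) and kif26aa (-0.08). Above background on the Tg array alone were kif9 (a bound of 0.99, just under 2-fold) and kif16bb (a bound of 0.04), so these genes had no common direction. The name patterns alone place kif2a in this role, apart from its relative kif2c among the mitotic kinesins. The checkpoint kinase relative bub1bb was at -0.32 by 1 probe (8.05 and 7.73). Separate subunits of the NDC80 complex, the microtubule grip of the kinetochore, went separate ways. Its members ndc80 (-0.55, 12.39 and 11.85) and nuf2 (-0.63, 12.36 and 11.72) were below 0. The spc25 gene was at -0.15 (12.31 and 12.15). In contrast spc24 was at 0.75 (10.67 and 11.42), and its other probe at 0.98. The complex as a whole thus had no common direction.

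Further genes of mitosis, from a list that the name patterns do not take, pointed the same way as the mitotic genes above. Of 55 on the array, 51 were above background on both arrays, 42 of them below 0 and 9 above (52.5% of all genes were below 0). None differed by 2-fold, beside 3.53% of all genes at least 2-fold lower and 4.73% higher. The median of the 51 genes was -0.36. The lowest was cdc27, a subunit of the anaphase-promoting complex, at -0.84. The highest was cdc26, another of its subunits, at 0.49. The cyclin B gene ccnb1 was at -0.50, cdk1, its kinase, at -0.15, tacc3 of the spindle at -0.76 and dlgap5 at -0.80. The transcription factor genes foxm1 and mybl2b, which drive many genes of this stage of the cycle, were at -0.37 and -0.33.

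Within complexes assembled from these lists after their values were seen, condensin and cohesin were more uniform than the anaphase-promoting complex. All 7 condensin genes were below 0 (52.5% of all genes were), from -0.74 (smc4) to -0.11 (ncaph2), with a median of -0.50. Of 7 cohesin genes 6 were below 0, from smc1al (-0.99) to stag1a (0.02), with a median of -0.52. The signals of stag1a (6.77 on WT and 6.79 on Tg), rad21b (7.28 and 6.83) and stag2a (7.25 and 6.92) were close to the background limits, so their differences are less certain. The NDC80 complex had 3 of 4 genes below 0 and the chromosomal passenger complex 2 of 4. The anaphase-promoting complex had 6 genes below 0 and 5 above (54.5% below 0, near the 52.5% of all genes, median -0.13). Above 0 were anapc5 and the small subunits anapc11, anapc15 (0.38), anapc16 (0.71) and cdc26, and below 0 were anapc1 (-0.31), anapc4 (-0.13), anapc7 (-0.44), cdc16 (-0.37), cdc23 (-0.27) and cdc27.

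Other gene groups differed between the arrays too, and their part in these differences was not tested. Of 14 DNA replication genes above background, 13 were below 0 and 5 were 2-fold lower, with a median of -0.82 (52.5% and 3.53% of all genes). The helicase gene mcm7 read 16.70 on WT and 15.41 on Tg (-1.29), while pcna was at 0.38. Markers of erythrocytes (median -0.48, 9 of 10 below 0) were mostly lower on the Tg array, again with no tolerance around 0. The globin genes hbae1.1 (-0.05), hbae3 (0.02), hbbe1.1 (-0.001) and hbbe3 (-0.06) hardly differed, at levels from 18.26 to 19.00. The lower values were those of hbbe2 (-0.43) and of markers other than globins, such as epb41b (-1.54). Epidermis markers (median -0.41, 7 of 9 below 0) were mostly lower too. Markers of some other tissues lay the other way, with skeletal muscle at 0.79 (10 of 10 above 0), lens at 0.74 (8 of 8) and neurons at 0.32 (7 of 9). Levels of these lists averaged 15.76 and 16.60 for muscle, 10.99 and 11.87 for lens, 10.65 and 10.86 for neurons, 14.99 and 14.51 for erythrocytes and 15.64 and 15.20 for epidermis (WT and Tg), so markers of all 5 tissues were present on both arrays. By these markers the RNA of either array came from several tissues and not from blood cells alone. Of 10 tailbud markers only fgf8a (-0.82) and ripply1 (0.23) were above background on both arrays, 5 were measured on the WT array alone, tbxta on the Tg array alone, and her1 and her7 on neither.

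**Figure D4:**
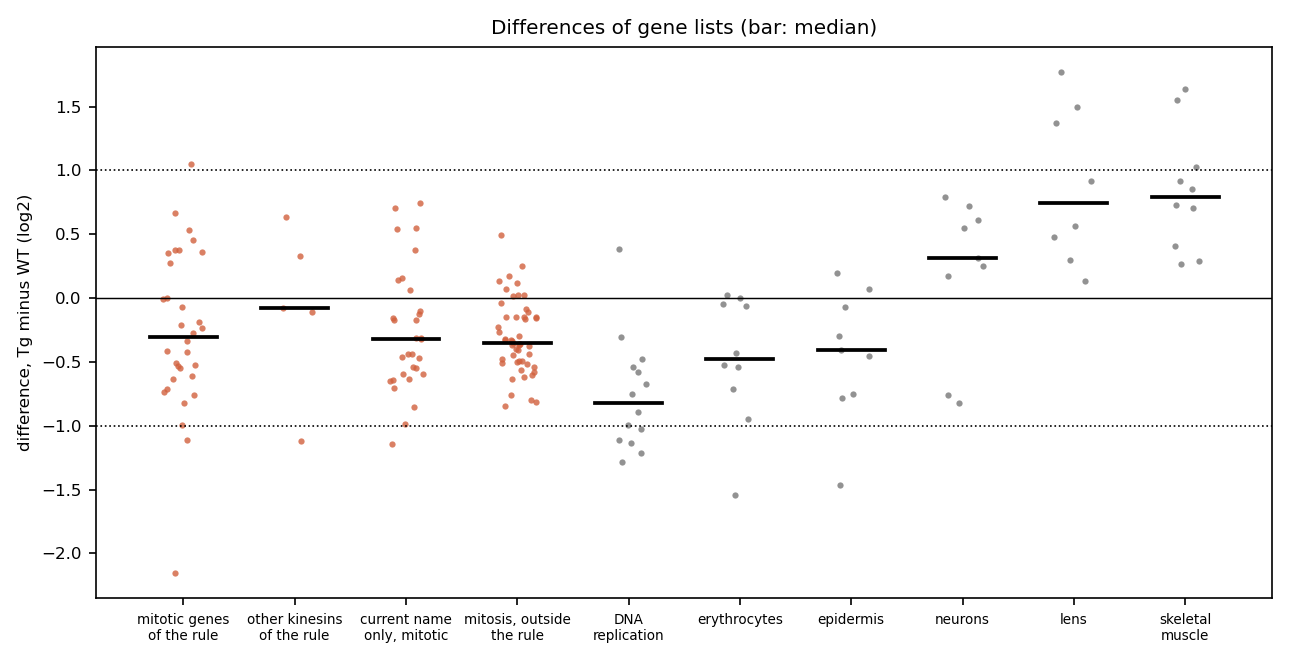
Difference between the arrays (Tg minus WT, log2, y axis) for each gene above background on both, by list, with medians as black bars and dotted lines at 2-fold. Orange lists are the mitosis and kinesin genes, with medians of -0.30, -0.08, -0.32 and -0.36 from left to right, and grey lists are DNA replication and tissue markers, from -0.82 for replication to 0.79 for muscle.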

How the data were processed

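Cy3-labelled RNA of 1 WT and 1 Tg array was read by the authors with Agilent Feature Extraction. The deposited log2 values were already normalized by the authors, for 43553 probes with no background flags (how is not stated in the labels or methods). The series-wide table repeats them. Subtracting the 75th percentile of each array (9.59 on both) shifted every difference by -0.001. Levels are printed as deposited. Probes were named through RefSeq accessions (26621) of the GRCz12tu gene table, used for names only, by current (2682) or older symbols (1689), or kept their file symbol (4448), and 8113 were unnamed. A probe above background on 1 array gives a bound against the lowest signal above background on the other. Depth does not apply to arrays, and their number limits the precision. With 1 array per group no test was possible.

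Members, lists and the background rule were chosen with earlier results of these data known. The genes named are those past 2-fold, the highest and lowest of each role, and a fixed set of well-known mitotic genes, of which bub1, incenp, tpx2, espl1, pttg1, kif1aa and others with no matching probe name are not reported. A search of promoters for motifs was planned, but was not run without a promoter table. Cross-hybridization between paralogs such as birc5a and birc5b was not checked, since no probe sequences were used. Alternatives covered scaling, the filter on dim probes, the probes and names of a gene, and the threshold. The steps were tested on simulated data. Python 3.11.15, numpy 2.4.6, pandas 2.3.3 and matplotlib 3.10.9 were used.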

Additional observations from a re-analysis of the deposited data

How the results depend on the processing

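No paired analysis was possible because each group has 1 array. A median or a difference was taken as moved when it changed by more than 0.15, the median SD between probes of a gene. A count was taken as moved when it changed by more than 1.5-fold or became 0. Scaling, the table of the series and the symbols of the files moved no count and no median. Without the filter on dim probes the median of all the genes was -0.12 in place of -0.24, which is within 0.15 but much smaller. The count of genes at least 2-fold lower, 3, became 1 with the mean over probes (kif5bb), 1 with the probe nearest the median, 10 at 1.5-fold and 1 at 4-fold. The count of genes at least 2-fold higher, 1, became 0 with the 99th percentile as background limit, 0 with the mean over probes, 0 at 4-fold and 3 at 1.5-fold. Shares of all genes (3.53% lower and 4.73% higher) were taken at the main setting only. The counts under other settings therefore have no share to stand beside, and no excess can be read from them. Restricting the genes to those with 2 or more probes above background was a setting chosen after seeing the data. It left 0 higher and gave medians of -0.46 for all the genes and -0.51 for the mitotic ones, with fewer genes remaining. Of the other kinesins kif5aa alone remained, so their value of 0.64 is that of 1 gene and not of the role. Genes matching by current names, also added after seeing the data, brought the lower count to 4. The median of other kinesins was 0.11 with the higher background limit. The median of the mitotic genes stayed between -0.51 and -0.22 over all settings. The cdc20 difference ran from -2.16 to -0.26 and that of top2a from -1.12 to -0.84. The cause of these shifts was not tested beyond what each setting leaves out. Signals near the background limit, as for birc5b, are the least certain.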
